A study of Mus musculus with 2 samples.

Results

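Proteasome genes were followed in blood of injured mice. The genes are those in the deposited gene list whose symbol starts with Psma, Psmb, Psmc, Psmd, Psme, Psmf or Psmg followed by a digit, pseudogene symbols left out, which gave 50 of 32285 genes. They encode subunits of the proteasome, its activators and its assembly chaperones. Psmc3ip, which the symbol rule takes in, encodes a recombination factor and no subunit. The rule uses names alone, but the group was taken up with earlier results of these data known.

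The samples were 2 single-cell libraries (10x Chromium) of wild type mice that had received burn/tenotomy, a burn combined with the cutting of a tendon. Blood cells had been enriched on the iChip, a microfluidic cell sorter, and the labels call them cMPCs and blood cells. Both libraries belong to the same group, and no uninjured samples were analysed here. Whether each replicate is its own mouse is not stated. The p-values thus measure only how the difference between groups of barcodes varied between these libraries, pooled across genes, and that spread may be technical. The values are unique molecular identifiers (UMIs), each standing for 1 captured RNA molecule, counted per gene and barcode.

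The proteasome is the barrel-shaped protease that degrades proteins tagged with ubiquitin. Its 20S core is made of alpha rings, which gate the entry, and beta rings, which hold the cutting sites. The 19S cap, a base of ATPases under a lid, receives, unfolds and deubiquitinates the substrate, while activators such as the PA28 proteins and PA200 open the core without the cap. Interferon brings in immune beta subunits (Psmb8, Psmb9, Psmb10) in place of the constitutive ones (Psmb5, Psmb6, Psmb7), which changes the peptides made for display on class I molecules. Maturing red cells clear much of their protein and organelles and keep RNA for a short time only.

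Barcodes were divided by their globin content. Globin-dominated barcodes, with at least 50% of UMIs from globin genes, numbered 474 of 1008 in replicate 1 and 373 of 849 in replicate 2. The other barcodes numbered 534 and 476, and no barcode was shared by the libraries (0). Close to the threshold there were 3 and 15 barcodes with 40 to 50% globin, and 18 and 20 barcodes with 50 to 60%. Levels are given per 1e6 non-globin UMIs (CPM), of which the globin-dominated barcodes held 385954 and 292892 and the other barcodes 664805 and 534363. The classes differed in make-up beyond globin. Mitochondrially encoded genes took 3.49% and 3.01% of non-globin UMIs in globin-dominated barcodes and 53.0% and 54.2% in the others. Gm42418, a gene that overlaps ribosomal RNA sequence, took 46.3% and 43.0% against 7.67% and 15.7%. A further comparison therefore kept only other barcodes with at most 20% mitochondrial UMIs, 95 and 148 in number. All 15 red cell markers were detected in globin-dominated barcodes, together at 72851 and 74352 CPM against 948 and 3999 CPM in the others. The 20 leukocyte markers summed to 130 and 68.3 CPM in globin-dominated barcodes and 11686 and 997 CPM in the others, with Cd79a, Csf1r, Cd3e and Nkg7 at 0 UMIs in the former.

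Proteasome transcripts were present in both classes, but the shares supplied by single genes differed. In globin-dominated barcodes the 50 genes gave 673 and 523 UMIs, or 1744 (95% exact Poisson interval 1614 to 1881) and 1786 (1636 to 1945) CPM. In all other barcodes they gave 495 and 348 UMIs, or 745 (680 to 813) and 651 (585 to 723) CPM. The summed level was thus higher in globin-dominated barcodes in both libraries, by 2.34-fold and 2.74-fold, on a scale that the mitochondrial share moves. Against the other barcodes with few mitochondrial UMIs, which stood at 1464 and 1405 CPM, the ratios were 1.19 and 1.27. With mitochondrial genes taken out of the totals the levels were 1807 and 1841 CPM in globin-dominated and 1585 and 1422 CPM in all other barcodes, and without Gm42418 as well they were 3473 and 3306 against 1894 and 2168 CPM. All such intervals cover counting error only.

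The sum rested on a few genes. Psme3, Psmd4, Psmf1 and Psmd8 made up 1073 of 1196 proteasome UMIs (89.7%) in globin-dominated barcodes and 131 of 843 (15.5%) in the others; these 4 genes were singled out after their values were seen. Psme3 alone gave 66.2% of the UMIs in globin-dominated barcodes and 8.42% in the others. Without Psme3, a step added after seeing the data, the summed level was 580 and 615 CPM in globin-dominated against 734 and 531 CPM in all other barcodes, so that the libraries differed in direction. The remaining 46 genes stood at 179 and 184 CPM in globin-dominated barcodes. In all other barcodes they reached 683 and 483 CPM, and in those with few mitochondrial UMIs 1349 and 1003 CPM. With mitochondrial genes out of the totals these sums were 185 and 190 against 1454 and 1055 CPM. Taking out genes that are high in globin-dominated barcodes lowers the sum there by construction, and 2 of the 46 genes, Psme1 and Psmb4, had a higher level there in both libraries.

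**Figure D1:**
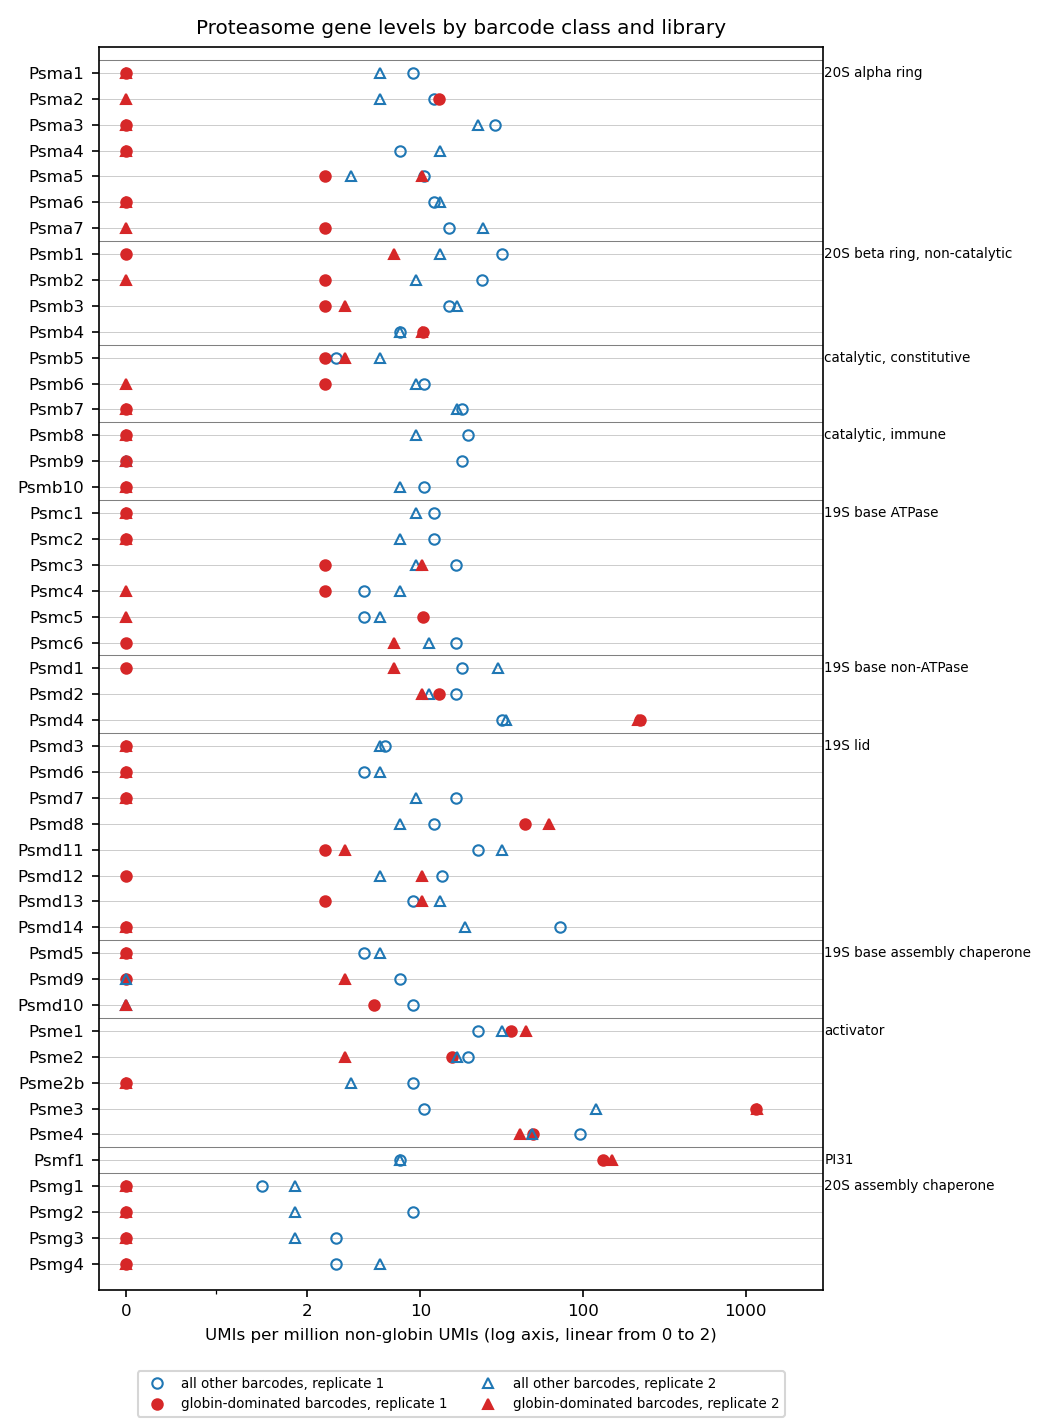
Level of each of the 47 detected proteasome genes in each library, in CPM (log axis, linear near 0), in globin-dominated and all other barcodes. Psme3, Psmd4 and Psmf1 stand above the other genes in globin-dominated barcodes of both libraries, and 20 genes have 0 UMIs there but some in the other barcodes.

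Sequence upstream of these 4 genes and of Psmd14, a gene with no UMI in globin-dominated barcodes, is shown to set genes of opposite pattern side by side. The sequences are RefSeq promoters on GRCm38.p6, upstream of the annotated start, 5′ to 3′ in the direction of the gene, without bases inside annotated exons. They lie at chr11:101315963-101316212 (plus strand) for Psme3, chr3:95042615-95042864 (minus) for Psmd4, chr2:151741311-151741560 (minus) for Psmf1, chr7:29180702-29180923 (minus) for Psmd8 and chr2:61711444-61711693 (plus) for Psmd14. The Psmf1 window lies inside the annotated gene span (chr2:151715812-151744186) and touches none of its exons. Capitals mark matches to the motifs described after the sequences.
Psme3: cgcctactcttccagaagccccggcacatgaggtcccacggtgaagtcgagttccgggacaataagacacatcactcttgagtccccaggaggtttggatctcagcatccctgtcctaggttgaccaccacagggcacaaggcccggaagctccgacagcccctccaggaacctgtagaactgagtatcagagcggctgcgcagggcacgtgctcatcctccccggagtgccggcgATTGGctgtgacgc
Psmd4: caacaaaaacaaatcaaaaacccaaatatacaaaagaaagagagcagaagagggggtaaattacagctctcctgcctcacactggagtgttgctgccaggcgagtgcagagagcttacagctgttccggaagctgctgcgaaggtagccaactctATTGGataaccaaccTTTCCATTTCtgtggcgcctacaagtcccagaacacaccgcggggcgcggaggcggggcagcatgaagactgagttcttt
Psmf1: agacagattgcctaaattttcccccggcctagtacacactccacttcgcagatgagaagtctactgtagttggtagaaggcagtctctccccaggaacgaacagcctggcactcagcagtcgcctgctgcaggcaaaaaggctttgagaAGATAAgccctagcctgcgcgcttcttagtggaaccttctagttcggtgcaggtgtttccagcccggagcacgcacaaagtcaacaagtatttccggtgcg
Psmd8: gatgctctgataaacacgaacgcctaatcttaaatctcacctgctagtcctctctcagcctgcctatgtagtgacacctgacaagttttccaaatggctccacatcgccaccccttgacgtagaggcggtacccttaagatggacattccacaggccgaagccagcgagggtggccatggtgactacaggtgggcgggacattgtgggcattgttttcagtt
Psmd14: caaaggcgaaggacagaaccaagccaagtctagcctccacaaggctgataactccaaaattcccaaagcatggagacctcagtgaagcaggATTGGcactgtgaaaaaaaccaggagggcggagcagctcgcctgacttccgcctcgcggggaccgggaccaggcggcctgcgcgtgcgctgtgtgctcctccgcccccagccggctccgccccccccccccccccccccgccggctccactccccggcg

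Of the 50 genes, 42 had a RefSeq promoter of 300 bases (250 before and 50 after the start), in which 6 motifs were searched on both strands. The CCAAT box (CCAAT, or ATTGG on the other strand) was found at position -14 from the start in Psme3, at -95 in Psmd4 and at -159 in Psmd14. It occurred in 15 of the 42 promoters and in 37.9% of all 27025 promoters. AGATAA, a form of the site bound by GATA factors, was found at -101 in Psmf1, in 3 of the 42 promoters and in 11.4% of all. The interferon-stimulated element, searched as 2 GAAA blocks with 2 free bases between them, was found at -80 in Psmd4 (minus strand), in 5 of the 42 and in 3.49% of all. The Psmd8 window held none of the 6 motifs. CCACACCC, a site of the CACCC kind, occurred in 1 of the 42 (Psmg1; 3.57% of all), the antioxidant element core TGACNNNGC in 6 (12.5% of all) and the gamma-activated site TTCNNNGAA in 3 (8.47% of all). A CCAAT box thus stood upstream of genes with opposite patterns, Psme3 and Psmd14, and the letters are a description, not evidence of binding.

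Psme3 encodes PA28 gamma, the nuclear activator that opens the core without ubiquitin or ATP. The gene lies at chr11:101316213-101323537 on the plus strand (GENCODE M21, mm10), a span that holds no exon of another gene. It gave 449 and 343 UMIs in globin-dominated barcodes, or 1167 ± 5.47 CPM (SD, n = 2 libraries), and 7 and 64 UMIs in all other barcodes, or 65.1 ± 77.2 CPM. The libraries nearly coincided in globin-dominated barcodes and differed widely in the others (10.5 and 120 CPM), and the classes did not overlap. The log2 fold change was 4.74 (SE 0.66) with an adjusted p of 2.71e-11 by edgeR's quasi-likelihood test with Benjamini-Hochberg adjustment over all genes tested. Each SE in this report was derived from the fold change and the test statistic. It thus rests on the spread shared across genes, not on that of the gene itself. For Psme3 the log2 fold change was 6.79 in replicate 1 alone and 3.29 in replicate 2 alone, which have no test and lie further apart than this SE. With the threshold at 90% globin, which moves the barcodes with 50 to 90% globin into the other class, it was 1.42 (edgeR adjusted p = 3.55e-14). Among non-globin, non-mitochondrial genes ordered by UMIs, Psme3 held rank 71 of 3665 detected genes and rank 73 of 2909 in globin-dominated barcodes, against 6121 of 13924 and 307 of 12750 in the others.

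Psme3 was spread over many barcodes. It was detected in 263 of 474 (55.5%) and 209 of 373 (56.0%) globin-dominated barcodes, with at most 7 and 6 UMIs in a barcode. Among all other barcodes it was detected in 6 of 534 (1.12%) and 44 of 476 (9.24%). The median barcode held 735 and 710 non-globin UMIs in the globin-dominated class and 843 and 780 in the other. With each barcode thinned to 100 non-globin UMIs, which left out 3 barcodes, the expected shares were 11.1% and 11.2% against 0.0704% and 1.58%. Barcodes with few mitochondrial UMIs and leukocyte markers held Psme3 in 1 of 61 (1.64%) and 0 of 5 (interval up to 52.2%), at a median of 1777 and 1879 non-globin UMIs. Other barcodes rich in mitochondrial UMIs held it in 2 of 439 and 1 of 328, but 82.9% and 87.6% of their non-globin UMIs were mitochondrial, which leaves little depth for it.

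Psme3 was low in barcodes with little globin and high in every bin above the threshold. Among barcodes with few mitochondrial UMIs it was 4.12 and 57.8 CPM below 10% globin (1 and 8 UMIs). Between 10 and 50% globin it was 232 and 734 CPM, the first from 4 UMIs in 9 barcodes. Above the threshold it was 1450 and 1130 CPM at 50 to 70% globin, 1240 and 1257 CPM at 70 to 90%, and 946 and 1085 CPM at 90% or more. Of the 64 Psme3 UMIs in other barcodes of replicate 2, 55 came from those with 10 to 50% globin, and with these barcodes left out, an alternative added after seeing the data, the log2 fold change was 6.81 (edgeR adjusted p = 1.31e-46). Psmf1 gave 62.1 and 65.2 CPM at 50 to 70% globin (3 UMIs in each library) and 191 and 213 CPM at 90% or more, with intervals that overlap in both libraries. The remaining 46 genes stood at 1432 and 1523 CPM below 10% globin, and no bin above that exceeded 238 CPM in either library.

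**Figure D2:**
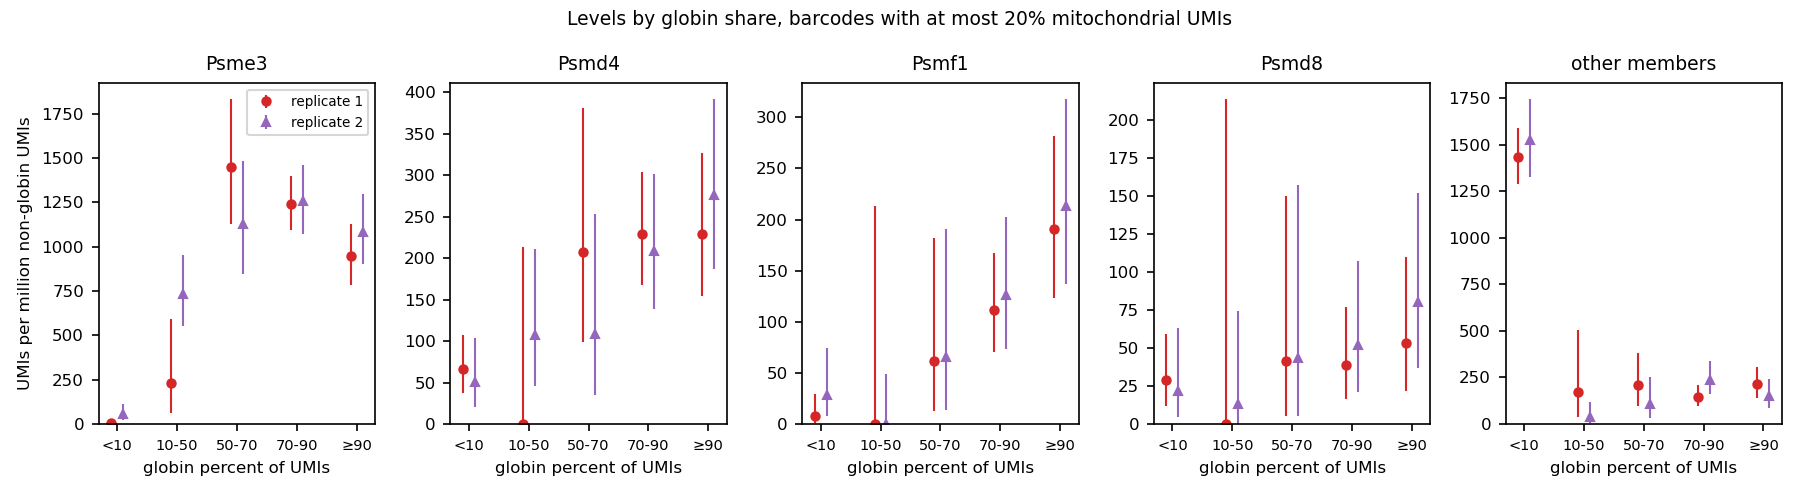
Level of Psme3, Psmd4, Psmf1, Psmd8 and the summed other 46 genes in CPM, by the globin share of the barcode, in barcodes with at most 20% mitochondrial UMIs; bars are 95% exact Poisson intervals. Psme3 stands at 4.12 and 57.8 CPM below 10% globin and between 946 and 1450 CPM in the bins above 50%, while the 46 genes are highest below 10%.

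Psmd4, Psmf1 and Psmd8 shared the direction of Psme3 at lower levels. Psmd4 encodes Rpn10, a ubiquitin receptor in the base of the cap. It gave 87 and 64 UMIs in globin-dominated barcodes (222 ± 4.88 CPM) and 21 and 18 UMIs in the others (32.6 ± 1.48 CPM), with no overlap and a log2 fold change of 2.76 (SE 0.55, edgeR adjusted p = 2.12e-06). Psmf1 encodes PI31, a protein that binds the core and was named as its inhibitor. Its UMIs were 51 and 44 (141 ± 12.8 CPM) against 5 and 4 (7.50 ± 0.0251 CPM), again without overlap, and the log2 fold change was 4.18 (SE 0.75, edgeR adjusted p = 1.58e-07). Psmd8 encodes Rpn12, a small lid subunit. It gave 17 and 18 UMIs (52.8 ± 12.3 CPM) against 8 and 4 (9.76 ± 3.22 CPM), and its log2 fold change was 2.35 (SE 0.74, edgeR adjusted p = 0.00205). The classes did not overlap for Psmd8 either, but the difference no longer passed with mitochondrial genes left out (log2 1.31, edgeR adjusted p = 0.12). Psmf1 and Psmd8 passed the filter on low counts, described below, through the globin-dominated class alone. Psme3 needed that class as well, so the p-values of these 3 genes are a description.

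These 4 genes also kept their direction against other barcodes with few mitochondrial UMIs. Psme3 stood at 19.2 and 295 CPM there, and its log2 fold change was 3.61 (SE 0.83, edgeR adjusted p = 2.48e-05); with trimmed-mean (TMM) scaling it was 5.41 and did not pass (edgeR adjusted p = 0.0604). With the threshold at 90% globin, which moves barcodes with 50 to 90% globin into the comparator, it was 0.57 (edgeR adjusted p = 0.00109). Psmf1 (2 and 4 UMIs in these other barcodes) differed by 3.43 on the log2 scale (edgeR adjusted p = 0.000132) and Psmd4 (16 and 15 UMIs) by 1.75 (edgeR adjusted p = 0.0108). Psme3 and Psmf1 again needed the globin-dominated class to pass the filter on low counts. Without that filter the edgeR adjusted p was 0.000283 for Psme3, 0.00038 for Psmf1 and 0.0331 for Psmd4. Psmd8 (7 and 4 UMIs) differed by 1.15 and did not pass (edgeR adjusted p = 0.171), though with TMM scaling it did (2.86, edgeR adjusted p = 0.0152). The higher level of Psme3, Psmf1 and Psmd4 was therefore also found where the mitochondrial share was low in both classes (6.58% and 4.02% in the other barcodes kept).

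A filter on low counts limited what could be tested. Against all other barcodes 8 of the 50 genes passed it, and 4 were higher (Psme3, Psmf1, Psmd4, Psmd8) and 2 lower (Psma3, Psmd11) in globin-dominated barcodes. Of all 2794 genes tested, 16.1% were called higher and 73% lower, with a median log2 fold change of -4.68. With mitochondrial genes left out, 12 passed the filter, 3 were higher and 6 lower, beside 283 higher and 2782 lower of 3391 genes tested. Against other barcodes with few mitochondrial UMIs 10 of the 50 passed, with 3 higher (Psme3, Psmf1, Psmd4) and 5 lower (Psmd14, Psma3, Psmb7, Psmd11, Psme4). The background was 9.02% higher and 80% lower of 3059 genes tested, with a median log2 fold change of -5.87. Lower calls were thus the rule among all genes in both comparisons, and a gene that passed the filter only through the class where it is high had to differ. Psmf1 and Psmd8 passed through the globin-dominated class alone, and Psma3, Psmd11, Psmb7 and Psmd14 through the other class alone. Psme3 needed the globin-dominated class as well, since its sum in the other class reached the filter only in replicate 2. The counts are therefore a description. Without the filter, Psme3 (edgeR adjusted p = 2.51e-09), Psmf1 (3.02e-07) and Psmd8 (0.0139) still passed against all other barcodes.

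**Figure D3:**
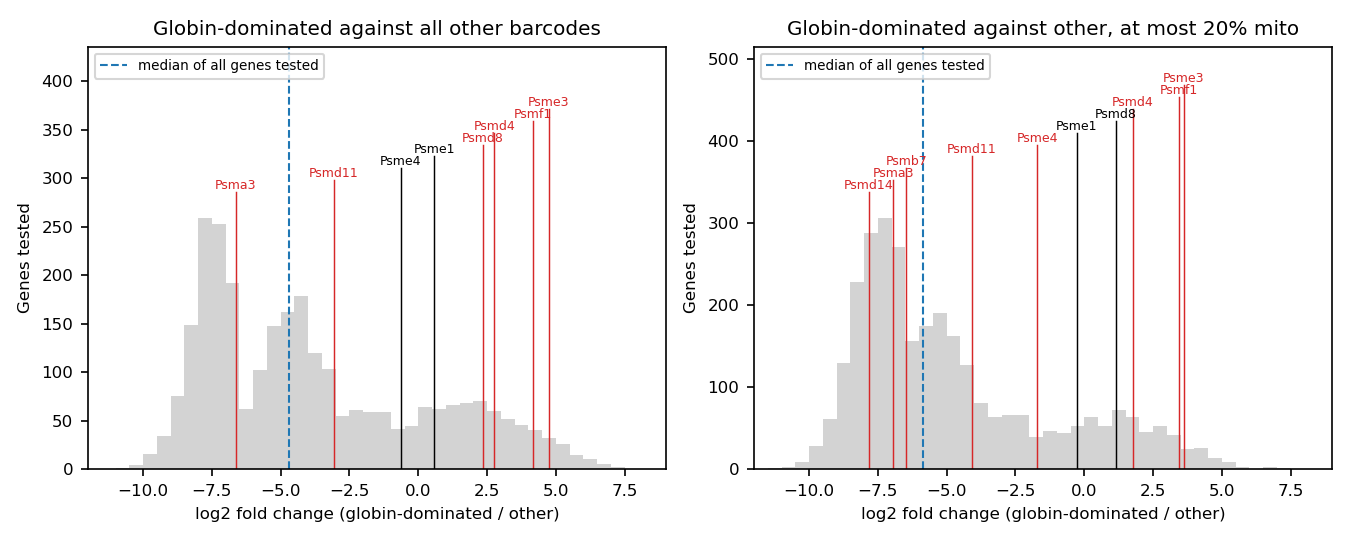
Log2 fold change, globin-dominated over other barcodes, of all genes tested (grey histogram) with the proteasome genes tested as vertical lines, red where the adjusted p was under 0.05; the dashed line is the median of all genes. Left, all other barcodes; right, those with at most 20% mitochondrial UMIs. Most genes lie below 0, and Psme3, Psmf1 and Psmd4 lie above 0 in both panels.

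The other activators did not share the pattern of Psme3. Psme4 encodes PA200, a nuclear activator, and gave 19 and 12 UMIs in globin-dominated barcodes (45.1 ± 5.84 CPM) against 64 and 26 in all others (72.5 ± 33.7 CPM). The 2 classes were close in replicate 2 (41.0 against 48.7 CPM), and the difference did not pass (log2 -0.64, edgeR adjusted p = 0.351). Against other barcodes with few mitochondrial UMIs (200 and 103 CPM) Psme4 was lower by a log2 fold change of -1.70 (edgeR adjusted p = 0.0184), but with TMM scaling the value was 0.0058 and with DESeq2 the difference did not pass (adjusted p = 0.255). Psme1 encodes the alpha subunit of interferon-inducible PA28. It gave 14 and 13 UMIs (40.3 ± 5.74 CPM) against 15 and 17 (27.2 ± 6.54 CPM), with a log2 fold change of 0.58 that did not pass (edgeR adjusted p = 0.402) and that changed sign with mitochondrial genes left out (-0.47). Psme2, the beta subunit of the same activator, gave 6 and 1 UMIs against 13 and 9, an other-over-globin ratio of 1.78 with a counting interval of 0.734 to 4.93. Psme2b, a near copy of Psme2 whose reads may be shared with it, gave 0 and 0 UMIs against 6 and 2.

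The core's alpha ring held few UMIs in globin-dominated barcodes. Its 8 genes, among them the testis form Psma8 with no UMI in either class, gave 7 and 3 UMIs there (18.1 and 10.2 CPM) and 63 and 47 UMIs in all other barcodes (94.8 and 88.0 CPM). Psma1, Psma3, Psma4 and Psma6 had 0 UMIs in globin-dominated barcodes of both libraries. Psma3 had 19 and 12 UMIs in the others, at least 5.85-fold higher against a floor of 3 UMIs over the class (edgeR adjusted p = 0.00565 without the filter on low counts). Psma2 (5 and 0 against 8 and 3 UMIs), Psma5 (1 and 3 against 7 and 2) and Psma7 (1 and 0 against 10 and 13) made up the rest, of which Psma7 was higher in other barcodes by 13.0-fold with a counting interval of 2.11 to 536.

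The non-catalytic beta ring genes Psmb1, Psmb2, Psmb3 and Psmb4, structural subunits of the core, gave 6 and 6 UMIs in globin-dominated barcodes (15.5 and 20.5 CPM) against 52 and 25 in all others (78.2 and 46.8 CPM). Psmb4 was the exception in direction, with 4 and 3 UMIs (10.4 and 10.2 CPM) against 5 and 4 (7.52 and 7.49 CPM), a globin-over-other ratio of 1.37 with a counting interval of 0.435 to 4.15 that spans 1. Psmb1 gave 0 and 2 against 21 and 7 UMIs, Psmb2 1 and 0 against 16 and 5, and Psmb3 1 and 1 against 10 and 9.

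The catalytic genes were found almost wholly outside the globin-dominated class. The constitutive Psmb5, Psmb6 and Psmb7 encode the subunits with chymotrypsin-like, caspase-like and trypsin-like activity. In globin-dominated barcodes Psmb5 gave 1 and 1 UMIs, Psmb6 1 and 0, and Psmb7 0 and 0. In all other barcodes they gave 2 and 3, 7 and 5, and 12 and 9 UMIs. Psmb7 was at least 3.96-fold higher in all other barcodes, and in those with few mitochondrial UMIs (10 and 8 UMIs) at least 8.59-fold higher (edgeR adjusted p = 0.0041 without the filter; 0.124 with the filter and TMM scaling). Psmb5 was low in both classes, and its other-over-globin ratio of 1.42 had a counting interval of 0.232 to 14.9.

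The immune counterparts Psmb8, Psmb9 and Psmb10 had 0 UMIs in globin-dominated barcodes. In all other barcodes Psmb8 had 13 and 5 UMIs (at least 3.40-fold higher), Psmb9 12 and 0 (at least 2.26-fold) and Psmb10 7 and 4 (at least 2.08-fold). Replicate 2 thus had no Psmb9 UMI at all. Exons of Tap1 overlap Psmb9 on the opposite strand, so reads of the pair cannot be told apart unless strand was used in counting.

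The immune share of the UMIs of these 6 catalytic genes was 41 of 79 (51.9%, Clopper-Pearson 95% interval 40.4 to 63.3) in all other barcodes. It was 32 of 53 (60.4%, 46.0 to 73.5) in replicate 1 and 9 of 26 (34.6%, 17.2 to 55.7) in replicate 2, and the intervals overlap. In globin-dominated barcodes it was 0 of 3, for which the interval reaches 70.8%, so a difference between the classes was not detectable at this depth. A comparison of 2 libraries with 2 could not pass an exact permutation test in any case. The barcodes in which the catalytic genes were found differed between the libraries. Barcodes with few mitochondrial UMIs and at least 2 leukocyte markers numbered 61 in replicate 1, with an immune share of 15 of 25 UMIs (60%, 38.7 to 78.9), but 5 in replicate 2, with 0 UMIs of these genes. Barcodes with at least 2 mesenchymal, epithelial or mesothelial markers numbered 17 and 16, with 7 of 13 UMIs (53.8%) and 5 of 21 (23.8%). The part of this make-up in the difference between libraries was not tested.

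**Figure D4:**
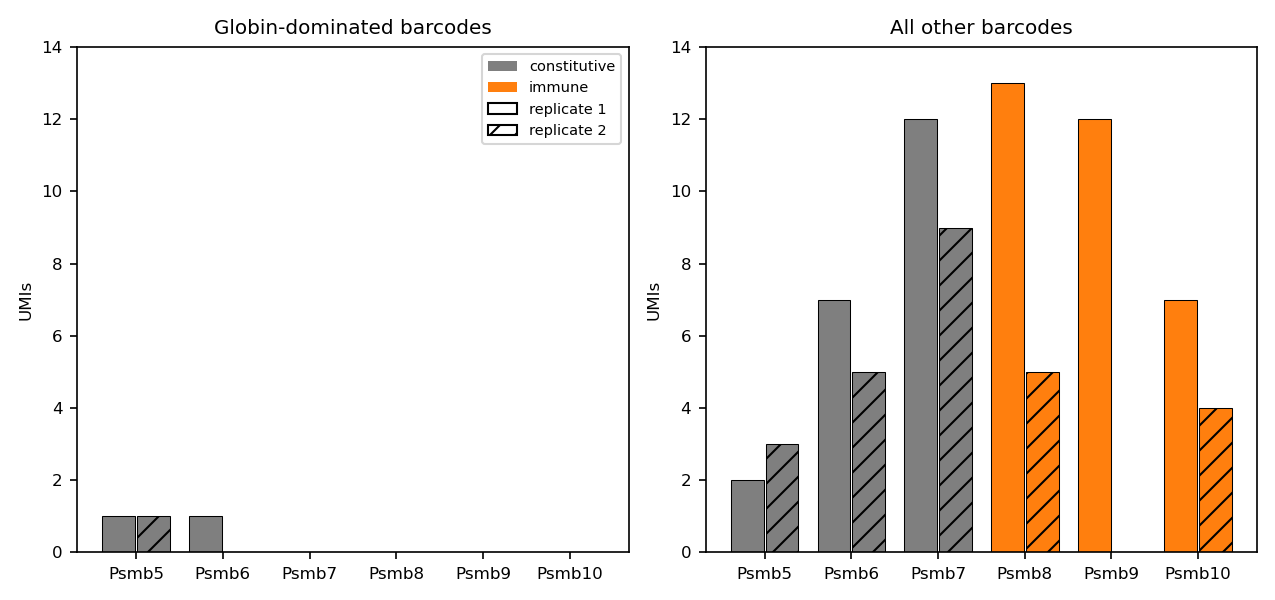
UMIs of the 6 catalytic beta subunit genes in globin-dominated and all other barcodes, per library. The immune genes Psmb8, Psmb9 and Psmb10 have 0 UMIs in globin-dominated barcodes, where the constitutive genes have 3 in all.

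In the 19S cap, Psmd4 and Psmd8 set the level in globin-dominated barcodes and most other subunits were at or near 0. The 6 base ATPases, the motor that unfolds substrates, gave 6 and 5 UMIs (15.5 and 17.1 CPM) against 44 and 27 (66.2 and 50.5 CPM) in all others. Psmc1 and Psmc2 had 0 UMIs in globin-dominated barcodes against 8 and 5, and 8 and 4. Psmc3 (1 and 3 against 11 and 5), Psmc4 (1 and 0 against 3 and 4), Psmc5 (4 and 0 against 3 and 3) and Psmc6 (0 and 2 against 11 and 6) had at most 4 in a library. Psmd1 and Psmd2, the large scaffolds of the base, behaved unlike Psmd4: Psmd1 gave 0 and 2 UMIs against 12 and 16, and Psmd2 5 and 3 against 11 and 6.

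Among lid genes outside the globin-dominated class Psmd14 led in replicate 1 (48 UMIs, against 15 for Psmd11) and Psmd11 in replicate 2 (17, against 10 for Psmd14). Psmd14 encodes Rpn11, the deubiquitinase that removes the ubiquitin chain. It had 0 UMIs in globin-dominated barcodes of both libraries and 48 and 10 UMIs in the others, in 32 and 8 barcodes, at least 10.9-fold higher over both libraries. Replicate 1 carried this bound: the other barcodes stood at 72.2 and 18.7 CPM, while 3 UMIs in globin-dominated barcodes would be 7.77 and 10.2 CPM. Against other barcodes with few mitochondrial UMIs (37 and 9 UMIs) the bound was 21.9-fold (edgeR adjusted p = 3.77e-06 without the filter). Psmd11, which encodes the lid scaffold Rpn6, gave 1 and 1 UMIs against 15 and 17, an other-over-globin ratio of 9.06 with a counting interval of 2.31 to 78.0 (edgeR adjusted p = 0.0463 without the filter; 0.0982 with the filter and TMM scaling). Psmd7, the partner of Psmd14 in the lid, had 0 UMIs against 11 and 5, at least 3.02-fold higher in the others. Psmd3 (4 and 3 UMIs in the others) and Psmd6 (3 and 3) also had 0 in globin-dominated barcodes, while Psmd12 (0 and 3 against 9 and 3) and Psmd13 (1 and 3 against 6 and 7) had at most 3 in a library.

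Assembly factors were scarce in both classes. The core chaperones Psmg1, Psmg2, Psmg3 and Psmg4 had 0 UMIs in globin-dominated barcodes and 11 and 6 in all others. The base chaperones Psmd5, Psmd9 and Psmd10 gave 2 and 1 UMIs against 14 and 3. Psma8, Psmb11 (the thymic beta subunit) and Psmc3ip were not detected in either class (0 UMIs). Counted over all 50 genes, 47 were detected, 6 had a higher level in globin-dominated barcodes in both libraries (Psme3, Psmf1, Psmd4, Psmd8, Psme1, Psmb4) and 33 a lower level in both. The share of all genes with such a shared direction is not given here, so these counts are a description. Without the filter on low counts, edgeR called 4 of the 47 higher and 4 lower, beside 413 higher and 3445 lower of 15845 genes. In globin-dominated barcodes 20 of the 47 had 0 UMIs, 13 had 1 to 3, 8 had 4 to 9 and 6 had at least 10. Low counts there were common to genes at large. Of the 50 genes, 22 and 20 were detected in globin-dominated barcodes and 47 and 44 in all others. Over all non-globin, non-mitochondrial genes the numbers were 3665 and 2909 against 13924 and 12750. The median log2 fold change without the filter on low counts was -2.86 over the 47 genes and -3.38 over all 15845 tested.

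**Figure D5:**
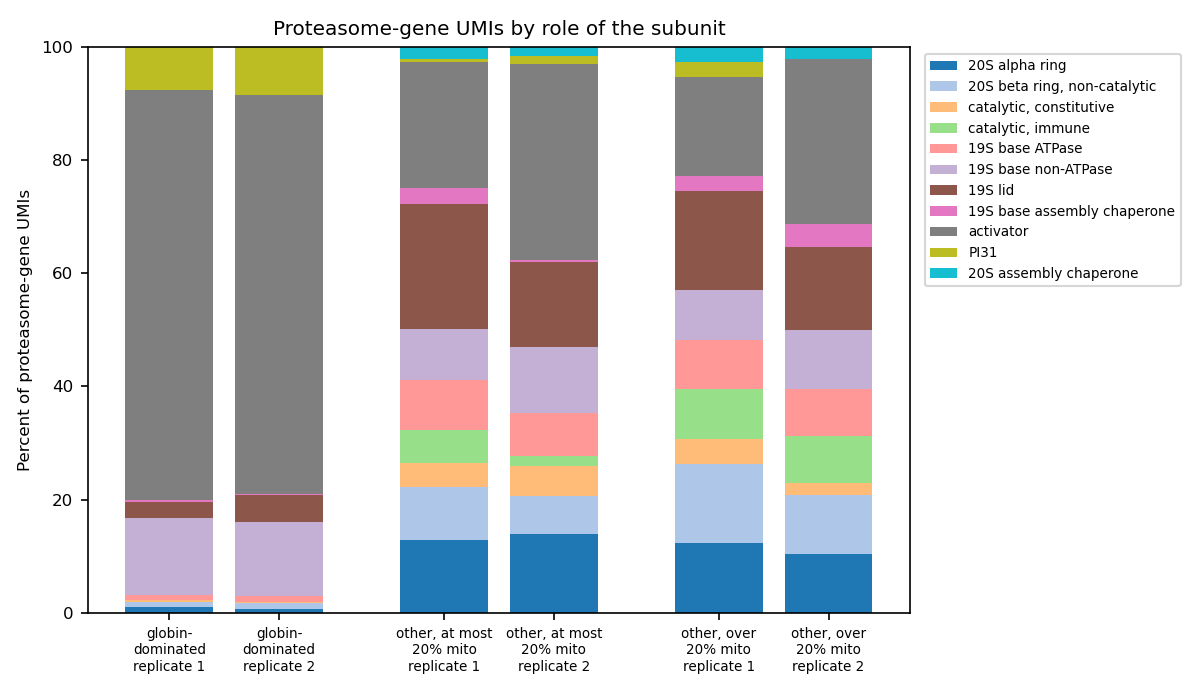
Percent of proteasome-gene UMIs by role of the subunit, as stacked bars, in globin-dominated barcodes and in other barcodes with at most or over 20% mitochondrial UMIs, per library. Activators make up 72.5% and 70.6% in globin-dominated barcodes and 22.3% and 34.7% in other barcodes with few mitochondrial UMIs.

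The leading genes of the other barcodes differed by marker set and library. Those with few mitochondrial UMIs and leukocyte markers held 265 proteasome UMIs, 241 of them in replicate 1, and Psme4 led them in both libraries (47 and 7 UMIs), while Psmd14 gave 28 and 1. Those with mesenchymal, epithelial or mesothelial markers held 312 (115 and 197), with Psmd14 first in replicate 1 (8 UMIs, before Psmd1 and Psmd7 with 6 each) and Psmd1 and Psme4 first in replicate 2 (14 UMIs each). The summed level of the 50 genes was 1535 and 1973 CPM in the former and 1568 and 1908 CPM in the latter. Psme3 was detected in 1 of 61 and 0 of 5 of the former and 0 of 17 and 3 of 16 of the latter. Barcodes with neither marker set, 17 and 127 in number, held 24.2% and 24.5% globin UMIs, and in these Psme3 was detected in 3 and 40. It gave 57 of their 79 proteasome UMIs in replicate 2 and 4 of 25 in replicate 1, and it was the leading gene over all other barcodes of replicate 2 (64 UMIs, against 26 for Psme4). Across the 47 detected genes the Spearman correlation of UMIs between all other and globin-dominated barcodes was 0.33, and that of gene span with UMIs was 0.23 in the others and 0.021 in globin-dominated barcodes, all over genes of the same libraries.

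Shares of barcodes with any proteasome UMI were 68.4% and 64.6% in the globin-dominated class and 25.5% and 21.8% in the other. Without Psme3 they were 31.4% and 27.6% against 24.7% and 14.1%. In other barcodes with few mitochondrial UMIs they were 78.9% and 48.0%, above the globin-dominated class in replicate 1 and below it in replicate 2, and 76.8% and 23.6% without Psme3. Thinned to 100 non-globin UMIs, the shares with any proteasome UMI were 15.5% and 15.3% against 3.88% and 3.63%, and without Psme3 4.96% and 4.69% against 3.81% and 2.06%. The thinned shares in other barcodes with few mitochondrial UMIs were 11.8% and 8.42%, and 11.6% and 3.52% without Psme3. The globin-dominated class and all other barcodes were thus closer to each other once Psme3 was left out, while against barcodes with few mitochondrial UMIs the order without Psme3 depended on the library, lower in replicate 1 and higher in replicate 2 in globin-dominated barcodes.

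Genes that act with the proteasome also differed between the classes. Rad23b, a shuttle that carries ubiquitinated proteins to the cap, gave 1 and 0 UMIs in globin-dominated barcodes against 21 and 23 in all others (log2 fold change -4.41, edgeR adjusted p = 0.000614). Ecpas, a proteasome-binding scaffold, gave 1 and 0 against 72 and 30 UMIs. Ube3c, a ubiquitin ligase bound to the proteasome, gave 1 and 1 against 39 and 22. Both were lower (edgeR adjusted p = 3.51e-06 and 0.000165). Rad23b, Ecpas and Ube3c passed the filter through the other class alone, beside 73% of all genes tested called lower. Ubb, a polyubiquitin gene, was higher, with 3866 and 3350 UMIs against 135 and 92 (log2 5.84, edgeR adjusted p = 9.37e-11), beside 16.1% of all genes tested called higher. Rps27a, which encodes ubiquitin fused to a ribosomal protein, was lower, with 25 and 17 against 98 and 67 (log2 -1.15, edgeR adjusted p = 0.0478).

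Of the assembly and regulation list 3 of 8 genes were tested, and all 3 were lower (Nfe2l2, Ddi2, Zfand5), beside 73% of all genes tested. All 3 passed the filter through the other class alone. The transcription factor gene Nfe2l1, which drives proteasome gene expression, had 0 UMIs in globin-dominated barcodes against 13 and 17. Of the 5 p97 genes, which encode the segregase that pulls proteins from complexes and its cofactors, 2 were tested. Vcp was higher (34 and 45 against 28 and 28 UMIs, edgeR adjusted p = 0.0311), beside 16.1% of all genes tested called higher. This did not hold against other barcodes with few mitochondrial UMIs (edgeR adjusted p = 0.711). Class I peptide loading, the step downstream of the immune subunits, had 5 of 9 genes tested and 5 lower (Tapbp, B2m, H2-K1, H2-D1, Irf1), again beside 73% of all genes tested. Tapbp, H2-K1 and Irf1 passed the filter through the other class alone. H2-D1 needed that class as well, since its globin-dominated sum reached the filter only in replicate 2. B2m still gave 26 and 15 UMIs against 105 and 89, and Tap1 and Tap2 had 0 UMIs in globin-dominated barcodes against 13 and 5, and 7 and 4.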

How the data were processed

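The authors deposited unnormalized UMI counts, whole numbers for each gene in each barcode (integer matrices, per the file headers). Cell Ranger 7.1.0, Seurat 5 and mm10 appear in the submitters' processing notes. Barcode calling, doublet removal and the use of strand are not given in the sources used here, and no doublets were removed here. Barcodes with at least 500 (replicate 1) and 501 (replicate 2) UMIs were present, and all were used.

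Counts were summed per class and library (4 sums per comparison) and fitted in edgeR 4.0.16 (R 4.3.3): non-globin genes passing filterByExpr (minimum count 10), library size equal to the non-globin UMIs, a block for the library, since both sums of a library come from the same sample, the quasi-likelihood test, and Benjamini-Hochberg adjustment at 0.05. With 1 residual degree of freedom, the spread was wholly that shared across genes. Folds against 0 UMIs are bounds against a floor of 3 UMIs over the class. Gene spans come from GENCODE M21 and promoters from RefSeq. Intervals used scipy 1.17.1.

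The proteasome genes and all lists were chosen with earlier results of these data known. Named are the catalytic and activator genes, called genes whose 2 libraries share a sign (at most 15 higher and 10 lower), the 10 with most UMIs, genes with 0 UMIs and, per pathway list, at most 6 called genes; further genes were named to account for every member, as were Nfe2l1, Tap1 and Tap2 after their values were seen. Of the lists, Paaf1 had no matching symbol, and some list genes are not reported here. Alternatives covered scaling (TMM, DESeq2-type size factors, totals without mitochondrial genes or Gm42418), DESeq2 1.42.0, the filter, the block, the globin threshold, a minimum of 100 genes and each library left out.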

Additional observations from a re-analysis of the deposited data

How the results depend on the processing

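Psme3, Psmf1 and Psmd4 kept a higher level in globin-dominated barcodes under every alternative run in both comparisons. Few UMIs limit all other genes. The number of proteasome genes called lower moved most; the filter passed 6 to 12 of them across settings, and the cause of each shift was not tested otherwise. Against all other barcodes it was 2, and it was 1 with TMM scaling, with a threshold of 40% globin and with other barcodes under 10% globin (added after seeing the data). It was 0 at 90% globin (which moves barcodes with 50 to 90% globin into the other class), 4 without the filter and with at least 100 genes, and 6 without mitochondrial genes. Lower calls over all genes moved too. They were 2039 of 2794 tested in the main run, 1835 of 2794 with TMM scaling, 2035 of 2796 at 40% and 1346 of 2159 at 90% globin. They were 2082 of 2807 with other barcodes under 10% globin, 3445 of 15845 without the filter, 2673 of 3307 with at least 100 genes and 2782 of 3391 without mitochondrial genes. Against other barcodes with few mitochondrial UMIs the number of proteasome genes called lower was 5. It was 1 with TMM scaling and at 90% globin and 12 without the filter. Over all genes lower calls there were 2448 of 3059 in the main run, 1639 of 3059 with TMM scaling, 1172 of 1804 at 90% globin and 4709 of 14472 without the filter. TMM scaling also shifted the whole table: its median log2 fold change went from -4.68 to -4.23 in the first comparison and from -5.87 to -4.25 in the second. Without mitochondrial genes the median was -5.91 in the first comparison, but over the 3391 genes then tested and not the 2794 of the main run.

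The library block is part of the design, since both classes come from each library. With no replicate block the counts were 4 higher and 2 lower in the first comparison, as with it, and 3 higher and 4 lower against 3 and 5 in the second; Psme4 was the call lost (edgeR adjusted p = 0.0554). Leaving out a library leaves no residual degrees of freedom, so no test of counts was run; the ratio of summed levels was 2.34 to 2.74 in the first comparison and 1.19 to 1.27 in the second.

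The geometric mean of the library ratios of summed levels was 2.53 in the first comparison and 1.23 in the second. It was 1.74 and 1.07 at 90% globin, 1.45 and 1.15 with at least 100 genes, 0.956 and 0.471 without Psme3 (added after seeing the data), and 1.67 and 1.62 without mitochondrial genes or Gm42418. Without mitochondrial genes alone it was 1.21 in the first comparison, and with other barcodes under 10% globin 1.10 in the second. The immune share in globin-dominated barcodes rose from 0% to 4.10% when Psme1 and Psme2 were added to the immune genes and Psme3 to the constitutive ones, and thinning lowered the mean share of barcodes with a proteasome UMI from 66.5% to 15.4% and from 23.7% to 3.75%.

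Psme1 changed sign in both comparisons. Its log2 fold change of 0.58 became -0.47 without mitochondrial genes, -0.021 without Gm42418 as well and -0.23 with at least 100 genes. Its value of -0.28 in the second comparison became 1.37 with TMM scaling, 0.89 with DESeq2-type size factors, 0.12 without mitochondrial genes or Gm42418 and 0.90 with DESeq2. Psme4 went from -1.70 to 0.0058 with TMM scaling in the second comparison.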
